A study of Papio hamadryas with 4 samples.

Results

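The cytosolic ribosomal proteins are the protein subunits of the ribosome that works outside the mitochondria. They were taken as all probes whose gene symbol is RPL or RPS followed by a number, together with RPLP0, RPLP1, RPLP2 and RPSA. Pseudogenes, RPL3L, RPS19BP1 and the RPS6K genes, which encode S6 kinases and relatives, were left out, in all 24 symbols. This gave 87 probes of 48702 and 69 genes of 18774, of which 23 encode small subunit proteins, 39 large subunit proteins and 7 paralogs of these. RPLP0 and RPSA had no probe under those symbols and are not analysed here.

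A ribosome is built of a small and a large subunit, each of RNA and many proteins. The small subunit decodes the messenger RNA while the large subunit joins the amino acids. Ribosomal protein messenger RNAs carry a tract of pyrimidines at their start, through which the mTOR pathway controls their translation, and they are among the most abundant transcripts of most cells. Because they are so bright on an array, the way arrays are scaled against each other bears on them directly.

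Kidney biopsies of baboons (Papio hamadryas) were measured on 4 Illumina bead arrays, with 1 array a group. The groups were high SLC (HSLC) animals on high and on low sodium and normal SLC (NSLC) animals on high and on low sodium. Each diet was given for 6 weeks, and the baboons of each phenotype received both diets. How many animals stand behind each array, whether RNA was pooled, and the animals' age and sex were not stated in the labels. With 1 array a group, a ratio between arrays has no replicate check and no test. The one test possible was an additive model of both factors on all 4 arrays, whose error contains nothing of the variation among animals within a group.

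The arrays carry human probes, and a mismatch to the baboon transcript can leave a probe dim. The median intensity of all probes was 68.2 for HSLC on high sodium, 72.1 for HSLC on low sodium, 79.5 for NSLC on high sodium and 77.7 for NSLC on low sodium. The 95th percentile was 563, 513, 707 and 485 in the same order, so the NSLC high sodium array was the brightest in its upper range. Before any ratio was taken the arrays were quantile normalized, which gives all 4 the same distribution. Detection on an array means a signal above the median of that array, and each gene is read from its brightest probe.

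The ribosomal protein probes were spread over nearly the whole range of the array. Of the 87 probes, 42 lay above the 95th percentile of mean signal and are called bright here, 62 were detected on all 4 arrays, 8 on 1 to 3 arrays and 17 on 0. By gene, 51 of 69 were detected on all arrays, 6 on 1 to 3 and 12 on 0. The 12 were RPL10L, RPL13, RPL14, RPL17, RPL23A, RPL26L1, RPL28, RPL37, RPL38, RPL41, RPS15 and RPS26. For most of these the ribosome needs the protein in every cell, so a probe at the array's background says nothing about the transcript. The 6 partly detected genes were RPL22L1, RPL29, RPL32, RPL34, RPLP1 and RPS7. The counts and medians below cover the genes detected on the arrays compared, not all 69.

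The bright genes were 39, made up of 18 of the small subunit, 19 of the large subunit and 2 paralogs, RPS27L and RPS4Y1. Their median intensity over the 42 probes was 7688 for HSLC on high sodium, 6606 for HSLC on low sodium, 8789.8 for NSLC on high sodium and 5839.98 for NSLC on low sodium. Within each phenotype the high sodium array was the brighter one. The highest mean signals belonged to RPS28, RPS27 and RPS29, small proteins of the small subunit. RPS28 had an intensity of 16622 on high against 17197 on low sodium in HSLC, and 20989.7 on high against 15922 on low sodium in NSLC. The lowest among genes detected everywhere were RPS21, RPL11 and RPL37A, with RPL11 between 78.9 and 102, just above the array medians. RPL11, which binds MDM2 when ribosome assembly is disturbed, is therefore reported at a level where the array resolves little.

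**Figure D1:**
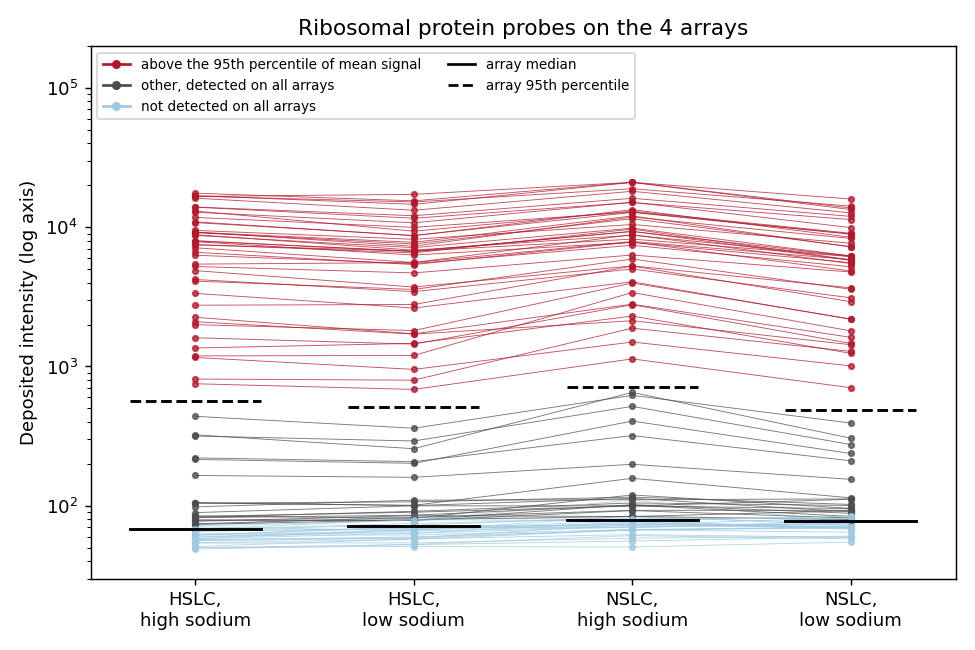
Deposited intensity (log axis) of each of the 87 ribosomal protein probes on the 4 arrays, with a line joining a probe across arrays and black bars for each array's median and 95th percentile over all probes. The 42 bright probes are the upper part by definition. On the HSLC high sodium array the dimmest of them is at 751 and the brightest other probe at 439. On the NSLC high sodium array the bright probes and the 95th percentile (707, against 485 for NSLC on low sodium) stand high together.

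Ribosomal proteins took up a larger share of the summed intensity on high sodium than on low sodium in both phenotypes. The share was 3.51% in HSLC on high sodium against 3.07% in HSLC on low sodium, and 3.41% in NSLC on high sodium against 2.91% in NSLC on low sodium. These probes are 0.179% of all probes. A share does not move when an array is multiplied by 1 factor, but it does when bright probes gain on dim ones. From low to high sodium the 95th percentile went from 485 to 707 in NSLC, while the median went from 77.7 to 79.5. In HSLC these went from 513 to 563 and from 72.1 to 68.2. The share of other bright genes is not given here. The members among the brightest 100 probes were 18 for HSLC on high sodium, 14 for HSLC on low sodium, 15 for NSLC on high sodium and 13 for NSLC on low sodium. In the top 1% of 487 probes they were 33, 33, 35 and 32 in the same order, so these counts were close to each other. In a biopsy, more cells rich in ribosomal protein transcripts and more such transcripts per cell cannot be told apart.

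In NSLC animals ribosomal protein transcripts were on balance slightly higher on high sodium. The median log2 ratio of high over low sodium was 0.13 over 51 detected genes, against 0.04 over all genes and -0.01 over other genes of the bright range. The ratio was above 0 for 41 of the 51 ribosomal protein genes, or 80.4%, against 56.5% of all genes. The quartiles of the ribosomal protein ratios were 0.01 and 0.25. Past 1.5-fold, 1 ribosomal protein gene was higher and 0 were lower, against 2.3% of all genes higher and 1.76% lower. At a smaller size, a log2 ratio of at least 0.32, 10 were higher, against 10.3% of all genes, and 0 were lower, against 8.68%.

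The member past 1.5-fold in NSLC was RPL7, a large subunit protein. RPL7 had an intensity of 651 in NSLC on high sodium against 305 in NSLC on low sodium. In HSLC it had 323 on high against 257 on low sodium. In deposited intensity the NSLC high sodium array was the highest of the 4. Without normalization 77.1% of other genes below the bright range were also higher in NSLC on high than on low sodium. The log2 ratio of RPL7 in NSLC was 0.59, just past the rule, and 0.54 to 1.10 over 10 ways of scaling. Next in NSLC came RPL4 (0.42), whose long extension lines the exit tunnel, RPL23 (0.40), RPL31 (0.40) and RPS4X (0.39). RPL31 had 2776 in NSLC on high sodium against 1465 in NSLC on low sodium, and 1607 on high against 1447 on low sodium in HSLC. At the lower end in NSLC were RPL39L (-0.22), a paralog of RPL39 known from testis, RPS27L (-0.11), the p53-inducible paralog of RPS27, RPLP2 (-0.08), RPS10 (-0.06) and RPS21 (-0.05).

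In HSLC animals the balance was similar and the leading genes were others. The median log2 ratio of high over low sodium was 0.11 over 53 detected ribosomal protein genes, against 0.01 over all genes and 0.00 over other bright genes. It was above 0 for 41 of 53, or 77.4%, against 52.6% of all genes. Past 1.5-fold, 0 were higher and 0 lower, against 2.25% and 1.34% of all genes. At a log2 ratio of at least 0.32, 2 were higher, RPS12 and RPL6, against 6.89% of all genes, and 0 were lower, against 4.81%.

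RPS12, a small subunit protein, had the highest ratio in HSLC, 0.42. Its intensity was 13057 in HSLC on high sodium against 9355 in HSLC on low sodium, and 13028 in NSLC on high sodium against 9044 in NSLC on low sodium. In deposited intensity both high sodium arrays stood above both low sodium arrays, but after normalization the NSLC ratio was 0.05. RPL6 (0.34), RPL26 (0.30), RPS4X (0.28) and RPL12 (0.26) followed. RPL12, part of the base of the stalk that recruits elongation factors, had 8833 in HSLC on high sodium against 6837 in HSLC on low sodium, and its NSLC ratio was 0.00. At the lower end in HSLC were RPL36 (-0.22), RPS27L (-0.14), RPS28 (-0.14), RPL23 (-0.14) and RPS23 (-0.12). RPS27L was thus among the 5 lowest in both phenotypes, although without normalization its NSLC ratio was 0.43.

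**Figure D2:**
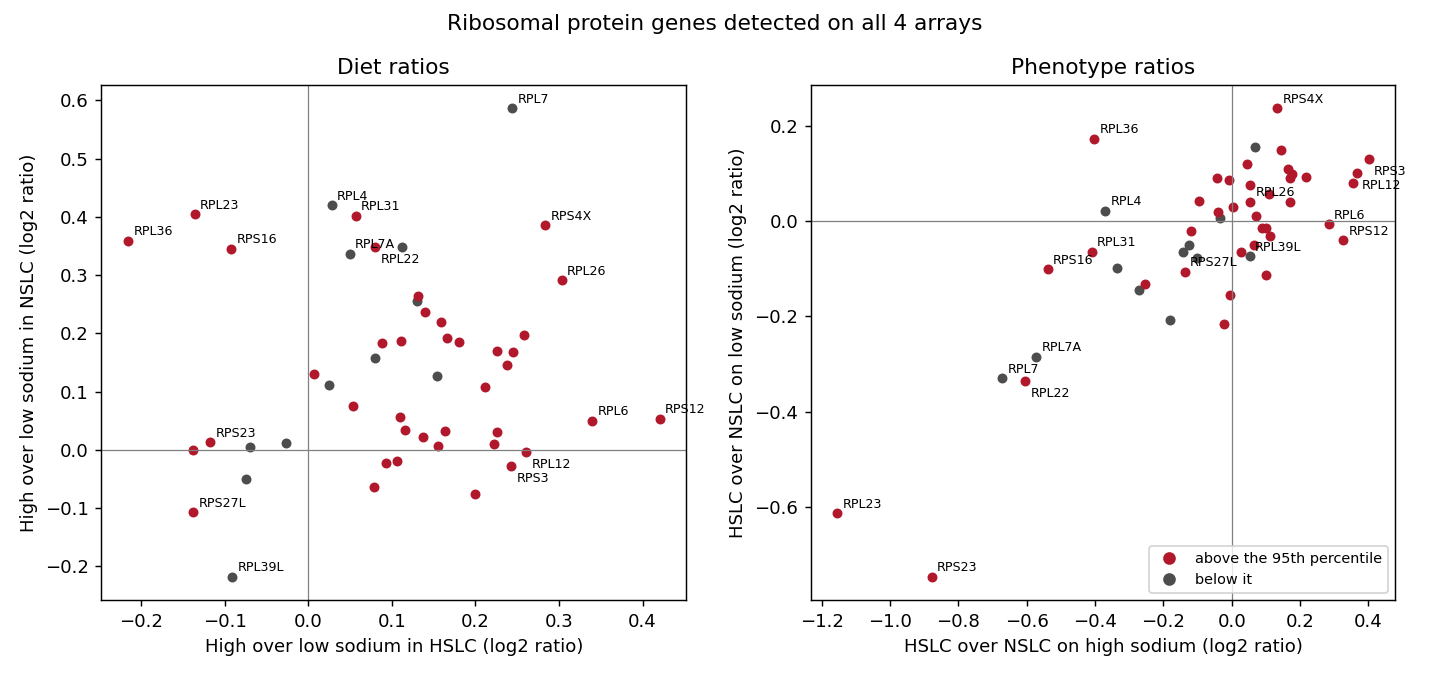
Log2 ratios of the 51 ribosomal protein genes detected on all 4 arrays, left the diet ratio in NSLC (vertical) against that in HSLC (horizontal), right the HSLC over NSLC ratio on low sodium (vertical) against that on high sodium (horizontal); red points are bright genes and grey points the others. On the left most points lie above 0 on both axes with no common order, and on the right RPL23 and RPS23 stand apart at the lower left.

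The pair of diet comparisons share no array, though all 4 were normalized together. Of 51 ribosomal protein genes, 35 had ratios above 0 in both phenotypes, against 41.0% of all genes, and 3 had ratios below 0 in both, against 32.1%. The order of the genes was not shared: over the 51 genes Pearson's r between the diet ratios was 0.06 and Spearman's rho 0.07, against 0.64 and 0.64 over all 11908 genes. Genes are not independent replicates, so these values only describe the arrays. The count of 35 became 24 with cyclic loess, against 43.6% of all genes, and 20 when arrays were scaled to bright probes that are not members, against 14.2%.

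The medians of the small and the large subunit were close to each other. In NSLC the small subunit had a median diet ratio of 0.11, with 15 of 20 genes above 0, and the large subunit 0.13, with 24 of 27 above 0. In HSLC they stood at 0.14 with 16 of 20 and 0.11 with 23 of 29. Over all genes 56.5% were above 0 in NSLC and 52.6% in HSLC. RPS6, the small subunit protein phosphorylated by S6 kinases, was at 0.15 in NSLC and 0.24 in HSLC. RPS19, the subunit mutated most often in Diamond-Blackfan anaemia, was at 0.03 and 0.16, and RPS24 at 0.03 and 0.23. Of the large subunit, RPL5, which joins RPL11 and a small ribosomal RNA in a complex that binds MDM2, was at 0.02 in NSLC and 0.14 in HSLC, RPL10, which completes subunit maturation, at 0.11 and 0.21, and RPL3, next to the peptidyl transferase centre, at 0.01 and 0.22. RPL13A, a target of interferon-dependent phosphorylation, was at 0.13 and 0.15.

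In the additive fit by limma, with Benjamini-Hochberg adjustment over 11908 genes, 3 ribosomal protein genes of 51 rose on high sodium and 0 fell, against 8.74% of all genes that rose and 7.05% that fell. At an unadjusted p under 0.05 these counts were 13 of 51, against 16.6% of all genes, and 0, against 13.3%. The count that rose depended on scaling: with median scaling it was 24 of 51, against 14.7% of all genes. RPL7 rose by 0.41 ± 0.10 on the log2 scale (SE, adjusted p = 0.0121), RPS4X by 0.33 ± 0.09 (adjusted p = 0.0211) and RPL26 by 0.30 ± 0.09 (adjusted p = 0.035). Over 12 other ways of processing, the adjusted p by limma ran from 0.00159 to 0.107 for RPL7, from 0.00505 to 0.248 for RPS4X and from 0.00595 to 0.307 for RPL26. RPL7 was called in 10 of the 12, RPS4X in 8 and RPL26 in 6. RPL26, which promotes translation of p53 after DNA damage, had 2253 in HSLC on high sodium against 1716 in HSLC on low sodium. In NSLC it had 2800.2 on high against 1618 on low sodium. In deposited intensity both high sodium arrays were above both low sodium arrays. Without normalization 54.6% of all genes were higher on high sodium in both phenotypes.

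RPS4X and RPS4Y1 encode near-identical proteins from the X and the Y chromosome, so their probes may read each other's transcript. RPS4X had 3346 in HSLC on high sodium against 2627 in HSLC on low sodium, and 4052 in NSLC on high sodium against 2179.9 in NSLC on low sodium. RPS4Y1 had 4099.9 against 3572 and 5909 against 3584 in the same pairs, with diet ratios of 0.14 in HSLC and 0.24 in NSLC. RPS4Y1 did not pass the fit (adjusted p by limma = 0.174). The signals of the pair are reported as uncertain between the genes.

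The size of the diet ratio in NSLC depended on how the arrays were scaled. Without normalization the median over ribosomal protein genes was 0.56, that of all genes 0.28 and that of other bright genes 0.53. With median scaling these were 0.50, 0.23 and 0.47. When the arrays were instead scaled to the bright probes that are not members, the ribosomal protein median was -0.010, all genes were at -0.28 and other bright genes at -0.04. Past 1.5-fold, 23 of 51 ribosomal protein genes were higher in NSLC without normalization, against 17.1% of all genes and 39.1% of other bright genes, where 1 was with it. The median relative to other bright genes moved less. It lay between 0.02 and 0.15 over 10 scalings and sources, above 0 in 10 of 10. No normalization, median scaling and scaling to other bright probes differ by a constant on each array. They share a value by construction, here 0.03. Without background correction it was 0.14, as in the main setting, so the 10 are not separate checks.

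**Figure D3:**
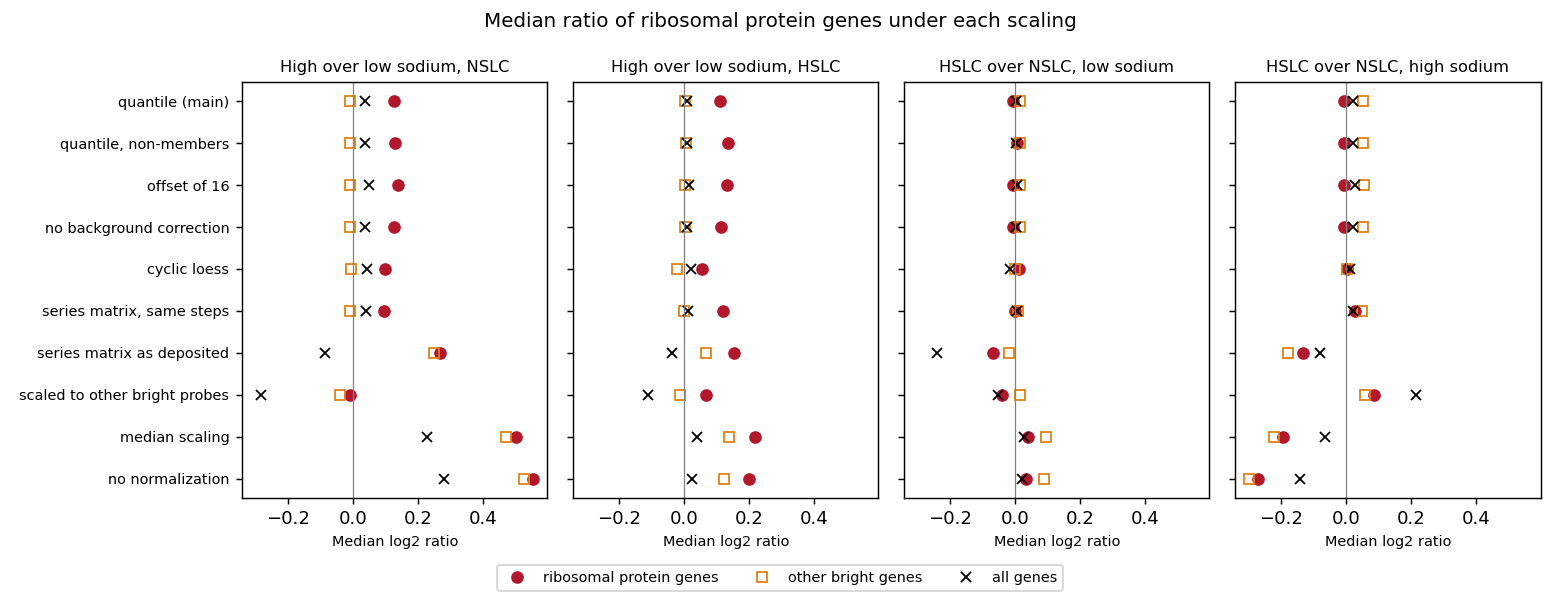
Median log2 ratio (horizontal) of ribosomal protein genes, other bright genes and all genes in 4 comparisons under 10 scalings and sources (vertical). In the NSLC diet comparison the ribosomal protein median runs from -0.010 to 0.56 and the other bright genes move with it.

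In HSLC the scaling mattered less. The ribosomal protein median was 0.20 without normalization, against 0.02 for all genes and 0.12 for other bright genes, and 0.07 when scaled to other bright probes. Over the 10 settings it ran from 0.05 to 0.22, and relative to other bright genes from 0.08 to 0.13, above 0 in 10 of 10. Settings that differ by a constant on each array again share a value by construction, here 0.08. Quantile normalization goes by rank within an array, so the counts above 0 given above restate shifts in rank. Over all detected ribosomal protein genes the median shift in rank on high sodium was 0.039 percentile points in HSLC and 0.033 in NSLC.

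The diet ratios differed between ranges of signal, with no steady trend in NSLC. For the 26 ribosomal protein genes in the top 0.5% of signal the median diet ratio in NSLC was 0.04, against -0.05 for 128 other genes of that range. For the 5 between the 98th and 99th percentiles, RPL22, RPL23, RPL26, RPL31 and RPL36, it was 0.36, against -0.01 for 418 other genes. The 5 between these ranges stood at 0.24, against 0.00 for 190 others, and the 3 dimmest bright genes, RPL10A, RPS23 and RPL39, at 0.01, against -0.01 for 1277 others. In HSLC the 26 brightest stood at 0.16, against -0.10 for other genes of the range. Above 0 were 24 of the 26, against 33.6% of the other genes. From the next range down the HSLC medians were 0.25, 0.06 and 0.01, against -0.05, 0.01 and 0.01 for other genes. Over the 39 bright genes Pearson's r between mean signal and the diet ratio was -0.41 in NSLC and 0.31 in HSLC, with Spearman's rho of -0.33 and 0.15. Over 2013 other bright genes r was -0.03 and -0.05. These describe genes of the same 4 arrays, and whether signal near the scanner's upper range compressed the ratios of the brightest genes was not tested.

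**Figure D4:**
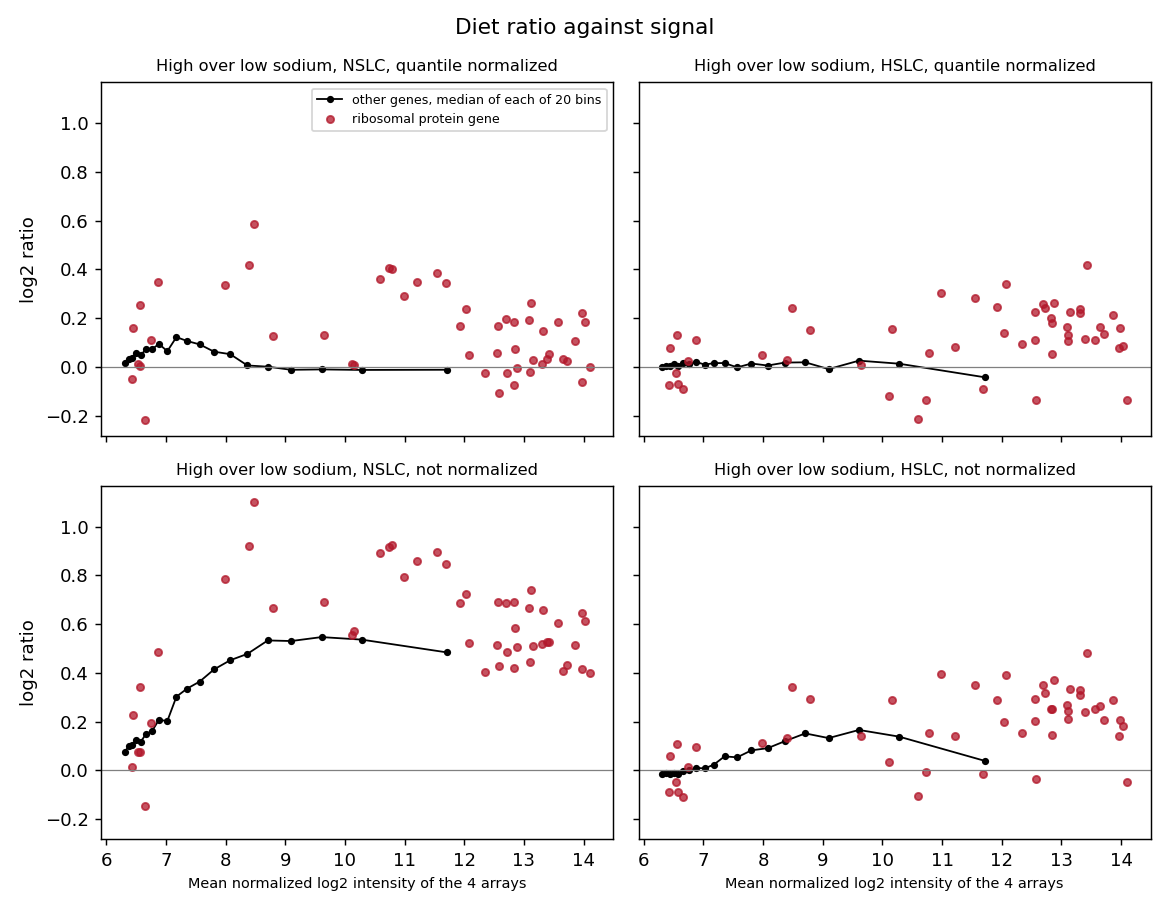
Log2 diet ratio (vertical) of ribosomal protein genes, red, against mean normalized log2 intensity (horizontal), with the median of other genes in 20 bins of signal as a black line, for NSLC (left) and HSLC (right), quantile normalized (top) and not normalized (bottom). Without normalization the black line for NSLC climbs to about the level of the ribosomal protein genes, whose median is 0.56.

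Between phenotypes the median ratio of the ribosomal proteins was near 0, and some members were lower in HSLC. On low sodium the median log2 ratio of HSLC over NSLC was -0.01 over 53 genes, against 0.00 over all genes, and 26 were above 0, against 50.8% of all genes. Past 1.5-fold 2 were lower, RPS23 and RPL23, against 0.324% of all genes, and 0 were higher, against 0.542%. On high sodium the median was -0.01 over 53 genes, against 0.02 over all genes and 0.05 over other bright genes, and 26 were above 0, against 56% of all genes. Past 1.5-fold 4 were lower, RPL23, RPS23, RPL7 and RPL22, against 2.14% of all genes, and 0 were higher, against 0.463%. At a log2 ratio of at least 0.32 in size, 11 of 53 were lower on high sodium, against 7.35% of all genes, and 4 were higher, against 3.47%. On low sodium 4 of 53 were lower at that size, against 2.38%. The 14 detected genes that are not bright had a median of -0.16 on high sodium, with 2 above 0, and the 39 bright genes 0.05, with 24 above 0.

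RPS23, a small subunit protein at the decoding centre, had 812 in HSLC on high sodium against 1884 in NSLC on high sodium, and 797 in HSLC on low sodium against 1283 in NSLC on low sodium. In deposited intensity both HSLC arrays were below both NSLC arrays. Its log2 ratio was -0.88 on high sodium, or 1.84-fold lower, and -0.75 on low sodium. RPL23, a large subunit protein that binds MDM2, had 1190.4 in HSLC on high sodium against 3394 in NSLC on high sodium, and 1199.8 in HSLC on low sodium against 1802 in NSLC on low sodium. For RPL23 too both HSLC arrays were below both NSLC arrays. Without normalization 35.6% of all genes were lower in HSLC on both diets, and 24.4% were in the main setting. Its ratio was -1.15 on high sodium, or 2.23-fold lower, and -0.61 on low sodium. It alone of the members was past 2-fold lower on high sodium, against 0.36% of all genes. RPS23 and RPL23 were each below 0 in 10 of 10 scalings and sources on both diets, between -1.20 and -0.85 for RPS23 and between -1.50 and -1.15 for RPL23 on high sodium.

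In the additive fit by limma, 5 ribosomal protein genes of 51 fell in HSLC and 0 rose, against 2.85% of all genes that fell and 0.831% that rose. At an unadjusted p under 0.05, 11 of 51 were lower, against 8.73% of all genes, and 3 were higher, against 6.32%. RPS23 fell by 0.81 ± 0.09 on the log2 scale (SE, adjusted p = 0.000267) and RPL23 fell by 0.88 ± 0.11 (adjusted p = 0.000904). RPL7 fell by 0.50 ± 0.10 (adjusted p = 0.0116), RPL22 fell by 0.47 ± 0.10 (adjusted p = 0.0136) and RPL7A fell by 0.43 ± 0.10 (adjusted p = 0.0241). RPS23 and RPL23 were called in 11 of 12 other ways of processing each, and lost in the one without a detection filter, at an adjusted p by limma of 0.065 and 0.123. RPL7 and RPL22 were called in 8 each and RPL7A in 5, with adjusted p-values by limma up to 0.266, 0.715 and 0.57.

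For the other 3 calls the ratio was larger on high than on low sodium. In deposited intensity the NSLC high sodium array was the highest of the 4. Few other genes were higher in HSLC on high sodium without normalization. They were 17.2% below the bright range and 3.35% between the 98th and 99th percentiles, the range of RPL22. RPL7A, another large subunit protein, had 215 in HSLC on high sodium against 406 in NSLC on high sodium, and 202 in HSLC on low sodium against 237 in NSLC on low sodium. Its log2 ratio was -0.57 on high and -0.28 on low sodium. RPL22, an RNA-binding subunit not needed for bulk translation, was lower on its brighter probe and not on its other bright probe. The brighter one (ILMN_1659989) had 1995.6 in HSLC on high sodium against 3974 in NSLC on high sodium, and 1810.5 in HSLC on low sodium against 2194 in NSLC on low sodium. The other had 2096 against 2129.6 on high sodium and 1706.5 against 1433 on low sodium, with log2 ratios of 0.35 and 0.18 where the brighter probe had -0.60 and -0.34. With the mean over a gene's probes RPL22 was not called, so its fall belongs to 1 probe.

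RPS9, the other gene with several bright probes, gave ratios close to each other. Its 3 probes had diet ratios of 0.24, 0.19 and 0.16 in NSLC and of 0.14, 0.17 and 0.21 in HSLC. Over 56 genes with more than 1 bright probe, the standard deviation of a probe's ratio was 0.13 in the NSLC and 0.16 in the HSLC diet comparison, 0.16 between phenotypes on low sodium and 0.26 on high sodium. This spread is between probes on the same arrays and holds nothing of the variation between animals.

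The highest ratios of HSLC over NSLC on high sodium were those of RPS3, a small subunit protein at the entry of the mRNA channel (0.40), RPL12 (0.37), RPLP2, an acidic protein of the stalk (0.36), RPS12 (0.33) and RPL6 (0.28). RPS3 had 7861 in HSLC on high sodium against 7778 in NSLC on high sodium, and 6307 in HSLC on low sodium against 5562 in NSLC on low sodium. In deposited intensity the high sodium pair of RPS3 was nearly equal, and without normalization the ribosomal protein median on high sodium was -0.27, against -0.14 for all genes and -0.30 for other bright genes. No member passed the fit as higher in HSLC. On low sodium the highest ratios were those of RPS4X (0.24), RPL36 (0.17), RPL36A (0.16), RPS13 (0.15) and RPS3 (0.13), and the 10 scalings and sources moved the median between -0.07 and 0.04. The phenotype comparisons on the 2 diets share no array. Over 51 genes their ratios had a Pearson's r of 0.78 and a Spearman's rho of 0.64, against 0.38 and 0.28 over all 11908 genes. Over the 37 bright genes other than RPL23 and RPS23 they were 0.50 and 0.48. Genes are not independent replicates, so these values too only describe the arrays.

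The diet ratio of HSLC minus that of NSLC had a median of -0.03 over 51 ribosomal protein genes, against 0.00 over all genes, with 23 above 0, against 50.3% of all genes. Past 1.5-fold 0 were higher and 0 lower, against 0.613% and 1.23% of all genes. This difference has no test, since it uses up all 4 arrays. The lowest members were RPL36 (-0.57), RPL23 (-0.54), RPS16 (-0.44), RPL4 (-0.39) and RPL31 (-0.35), and the highest RPS12 (0.37), RPL6 (0.29), RPLP2 (0.28), RPS3 (0.27) and RPL12 (0.26). RPS16, a small subunit protein near the peptidyl site, had 2753 in HSLC on high sodium against 2787 in HSLC on low sodium, and 5253 in NSLC on high sodium against 2920.1 in NSLC on low sodium. In deposited intensity the NSLC high sodium array alone stood high. The same array enters the NSLC diet ratio and the HSLC over NSLC ratio on high sodium. Other bright genes stood high on it as well. Without normalization their median was 0.53 for the NSLC diet ratio and -0.30 for HSLC over NSLC on high sodium.

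Other genes with the pyrimidine tract had medians close to those of the ribosomal proteins. The list of translation factors and other such mRNAs had a median diet ratio of 0.12 in NSLC and 0.13 in HSLC. Ratios were above 0 for 13 of 19 detected genes in NSLC, against 56.5% of all genes. In HSLC they were above 0 for 18 of 20, against 52.6%. By limma 2 of 19 rose on high sodium, HNRNPA1 and NAP1L1, and 0 fell, against 8.74% and 7.05% of all genes. FAU, whose product is cleaved into a ubiquitin-like part and the ribosomal protein RPS30, was at 0.10 in NSLC and 0.29 in HSLC, and TPT1, a growth-related protein, at 0.22 and 0.09. EEF1A1, the elongation factor that brings transfer RNA to the ribosome, was at 0.05 and 0.09. Translation initiation factors stood at 0.04 and 0.01, ribosome biogenesis genes at 0.09 and 0.07, and regulators of ribosomal protein synthesis at 0.08 and -0.02. Biogenesis genes had 0 calls of 29 in either direction by limma, for diet as for phenotype. Over all genes 0.831% rose and 2.85% fell in HSLC.

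Mitochondrial ribosomal proteins, which serve the separate ribosome of that organelle, stood at 0.03 in NSLC and -0.06 in HSLC. By limma 2 of 69 rose and 5 fell on high sodium, against 8.74% and 7.05% of all genes. In HSLC 0 rose and 11 fell, against 0.831% and 2.85% of all genes. Subunits of oxidative phosphorylation stood at -0.08 in NSLC, with 14 of 50 above 0, and at -0.13 in HSLC, with 7 of 51. Over all genes 56.5% were above 0 in NSLC and 52.6% in HSLC. A list of other bright genes of general cell functions, such as actins and tubulins, stood at 0.16 in NSLC and 0.15 in HSLC. Its median was thus higher than that of the ribosomal proteins in both phenotypes, and no test set the lists against each other.

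Markers of other cell types differed between the same arrays. Skeletal muscle markers, 12 of 12 with a probe, summed to an intensity of 1459.5 in HSLC on high sodium against 18836 in HSLC on low sodium, and 1591 in NSLC on high sodium against 2354 in NSLC on low sodium. RPL3L, the paralog of RPL3 found in striated muscle and no member here, had 60.8, 146, 76.2 and 81.7 in the same order. Fibroblast and smooth muscle markers summed to 14506 against 6559 in HSLC and 19931 against 5586 in NSLC, and macrophage markers to 4309.7 against 2094 and 4576 against 1995. Proximal tubule markers, 10 of 11 with a probe, summed in deposited intensity to 4543 against 6856 in HSLC and 9034 against 7297 in NSLC. After normalization their median diet ratio was -0.32 in NSLC, with 1 of 10 above 0, against 56.5% of all genes. In HSLC it was -0.75, with 0 of 10 above 0, against 52.6%. All 10 were detected on every array, so these markers bear out the kidney label. Podocyte markers, 2 of 3 with a probe, summed to between 245 and 255. No list had a marker listed at 0. With the NSLC low sodium array in place of the HSLC one, whose muscle markers are high, the median diet ratio of the ribosomal proteins in HSLC was again 0.11. That ratio also mixes phenotype with diet. The swap could change the median little, since HSLC over NSLC on low sodium had a median of -0.01, so it is no test of the muscle part. The part of the other cell types in the ribosomal protein ratios was not tested.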

How the data were processed

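Total RNA was measured in kidney biopsies on 4 Illumina arrays, 1 for each of 4 groups. BeadStudio was the authors' software, per the submitters' processing notes, which name no version. Their background correction, normalization and any pooling of RNA are not stated in the labels. The deposited intensity is linear, and the arrays' medians differ. A series matrix deposited with the same arrays was used as an alternative, and its scale and centring stay unknown beyond its order of probes.

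From the deposited intensity 1 probe listed at 0 was dropped. The normexp correction with an offset of 50, quantile normalization and log2 followed (limma 3.58.1 in R 4.3.3). Of 48701 probes, 23687 carried 1 gene symbol in the platform annotation, 35 several and 24979 none. Detection was an intensity above the array's median, and 11908 of 18774 genes passed it on all arrays. Ratios of single arrays were counted at 1.5-fold, with 1.25-fold and 2-fold as alternatives. The additive fit, log2 value on diet and phenotype with eBayes, leaves 1 residual degree of freedom and used an adjusted p of 0.05. The pipeline was run on simulated data with a planted rise of the bright members. Recovery of that rise was required only for cyclic loess, scaling to other bright probes and quantile normalization on non-member probes. For the main setting only planted changes of other genes were checked. The simulated arrays differed by a constant and not by range of signal, unlike the arrays here. The members and the lists were chosen with earlier results of these data known.

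Named are the 5 highest and 5 lowest members of each comparison, the 3 brightest and 3 dimmest detected, a fixed set of well-known members, those past the fit, and leading genes of related lists. Other members were summarised. The offset compresses ratios of dim probes, and the number of arrays limits the precision.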

Additional observations from a re-analysis of the deposited data

Results flagged for a closer look

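RPL23, RPL36 and RPS16 had diet ratios of opposite sign in the 2 phenotypes, with a difference of at least 0.32 on the log2 scale. That difference was not tested, since each group has 1 array. With or without opposite signs, 1 of 51 members had a difference of that size upward and 6 downward. Over all 11908 genes these were 587 and 694. The share of all genes with opposite signs was not counted. For RPL23 the log2 diet ratio was -0.14 in HSLC and 0.40 in NSLC, a difference of -0.54. For RPL36, a large subunit protein, it was -0.22 in HSLC and 0.36 in NSLC, a difference of -0.57. Its intensity was 1357 in HSLC on high sodium against 1465 in HSLC on low sodium, and 2301 in NSLC on high sodium against 1243 in NSLC on low sodium. For RPS16 it was -0.09 in HSLC and 0.35 in NSLC, a difference of -0.44. The HSLC ratio of RPL36 was below 0 in 10 of 10 scalings and sources, and those of RPL23 and RPS16 were above 0 in 1, median scaling, at 0.01 and 0.00. In all 3 genes the NSLC high sodium array was the highest of the 4 in deposited intensity. Without normalization the median NSLC diet ratio of other bright genes was 0.53.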

How the results depend on the processing

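No paired analysis was possible because each group has 1 array, and for the same reason no array could be left out of a ratio; without 1 array the additive fit has no residual degrees of freedom. The median diet ratio in NSLC, 0.13, was 0.56 without normalization, 0.50 with median scaling, 0.27 in the series matrix as deposited and -0.010 when scaled to bright probes that are not members. The HSLC median, 0.11, was 0.22 with median scaling. The HSLC over NSLC median on high sodium, -0.01, was -0.27 without normalization, -0.20 with median scaling and -0.13 in the series matrix as deposited. The median difference of diet ratios, -0.03, was -0.35, -0.28 and, when scaled to bright probes that are not members, 0.080. The cause was not tested. Members that rose on high sodium by limma numbered 3, against 8.74% of all genes. There were 24 under median scaling (14.7% of all genes), 7 with normalization left out (8.89%) and 1 under cyclic loess (5.99%). When scaled to bright probes that are not members there were 0 (2.12%), and in the series matrix as deposited 1 (3.67%). Without a detection filter there were 0 (3.13%), and 16 of 69 were higher at an unadjusted p under 0.05, against 12.9% of all genes. With scaling to bright probes that are not members 1 member, RPL39L, fell, against 12.8% of all genes. Under that scaling 1 of 51 was higher at an unadjusted p under 0.05, against 3.47% of all genes. The count that fell in HSLC was 5, against 2.85% of all genes. It was 3 with median scaling (1.39% of all genes) and 2 with cyclic loess (1.03%). When scaled to bright probes that are not members it was 2 (0.865%), and with the mean over detected probes 3 (1.59%). Without a detection filter it was 0 (0.00533%), and 11 of 69 were lower at an unadjusted p under 0.05, against 6.35% of all genes. Over all genes, 1041 rose and 840 fell on high sodium, against 1756 and 72 with median scaling and 252 and 1528 when scaled to bright probes that are not members. With NSLC on low sodium as the low sodium array, chosen after seeing the data, the HSLC median was 0.11, against 0.02 over all genes. In that ratio 2 of 52 members were past 1.5-fold in either direction, against 0 of 53 in the main setting. The share of all genes past 1.5-fold is not given here. That ratio mixes phenotype with diet, so the 2 cannot be read as a diet change.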
